A study of Mus musculus with 12 samples.

Results

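Genes of inflammasome signalling, pyroptosis and necroptosis were followed in CD11c+ white blood cells sorted from mouse B16-OVA tumours: Nlrp3, Pycard, Casp1, Casp4, Gsdmd, Casp8, Ripk3 and Mlkl. They were chosen by symbol, through the Ensembl identifier of each row, and make up 8 of the 55401 gene identifiers in the deposited table. B16-OVA cells are melanoma cells of the mouse to which the model antigen ovalbumin was added. Every tumour grew in a mouse whose genotype is given as WT, while strain, age and sex are not stated in the labels. The untreated group received no treatment, the 20 Gy group received a radiation dose of 20 Gy on day 10 of tumour growth, the fusion protein group received a fusion protein as 20 mcg on day 10 followed by a second dose of 10 mcg on day 14, and the combined group received both. What the fusion protein consists of is not named in the labels. Tumours of all 4 groups were collected on day 17, and living CD45+ CD11c+ cells were sorted from them for total RNA sequencing, with 3 libraries per group and 12 in all. The labels number the libraries of each group 1 to 3 and do not say whether each came from a separate mouse, so the p-values measure the spread between these libraries.

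Inflammasomes are protein platforms that a sensor such as NLRP3 builds with the adaptor ASC, encoded by Pycard, to activate caspase-1. Caspase-1, and caspase-11 (encoded by Casp4 in the mouse) after it meets bacterial lipopolysaccharide in the cytosol, cut gasdermin D, whose freed fragment opens pores in the plasma membrane; the lytic death that follows is called pyroptosis. Necroptosis is a separate lytic death in which the kinase RIPK3 phosphorylates the pore-forming effector MLKL, and caspase-8 holds it in check while also driving apoptosis. Dendritic cells and other myeloid cells are known to express these genes, and many of them are known to respond to interferons or to bacterial products.

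Reads assigned to genes numbered between 14462032 and 23985496 per library, and the 8 genes drew between 48 reads (Mlkl) and 5857 reads (Nlrp3) in a library. All 8 passed the filter on low values. Ptprc (CD45) and Itgax (CD11c), which the sort selected for, were present in every library, and Itgax had normalized counts between 2226 and 9497. All 7 dendritic cell markers were found, and none of them was at 0 across a group. Markers of macrophages, monocytes, neutrophils, T cells, NK cells and B cells were found as well, so each value is a mean over a mixed sort, in which fewer cells of a type and less RNA per cell cannot be told apart. 20 Gy libraries 1 and 2 and combined library 1 stood apart from the rest: they had a read in 84.9%, 64.7% and 64.1% of 1479 genes for receptors of smell (olfactory, vomeronasal or trace amine), against 5.41% to 44.6% in the other 9. The libraries numbered 3 held the most melanoma transcripts, with summed counts of 1578, 3770, 14150 and 810.5 over the 5 markers in the untreated, fusion protein, 20 Gy and combined groups, against at most 202.1 in any other library.

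With the fusion protein, averaged over the libraries with and without radiation, Mlkl was 5-fold and Casp8 1.72-fold higher, and these 2 of the 8 genes rose while none fell. The other 6 genes had fitted differences above 0 that did not pass the test, which used no block. The test was limma on log2(normalized count + 1) with Benjamini-Hochberg adjustment over all 18274 genes tested and a threshold of 0.05, and it called 3.29% of genes in either direction and 2.07% as higher. The median log2 fold change of the 8 genes was 0.67, against -0.02 over all genes tested. Both calls were lost when the 3 libraries with reads in many receptor genes were left out, at a log2 fold change of 0.68 and an adjusted p of 0.166 for Casp8 and of 1.92 and 0.26 for Mlkl by limma. The 20 Gy group then held 1 library, number 3, which is assumed to vary like the other groups, so this fit is a weak check.

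**Figure D1:**
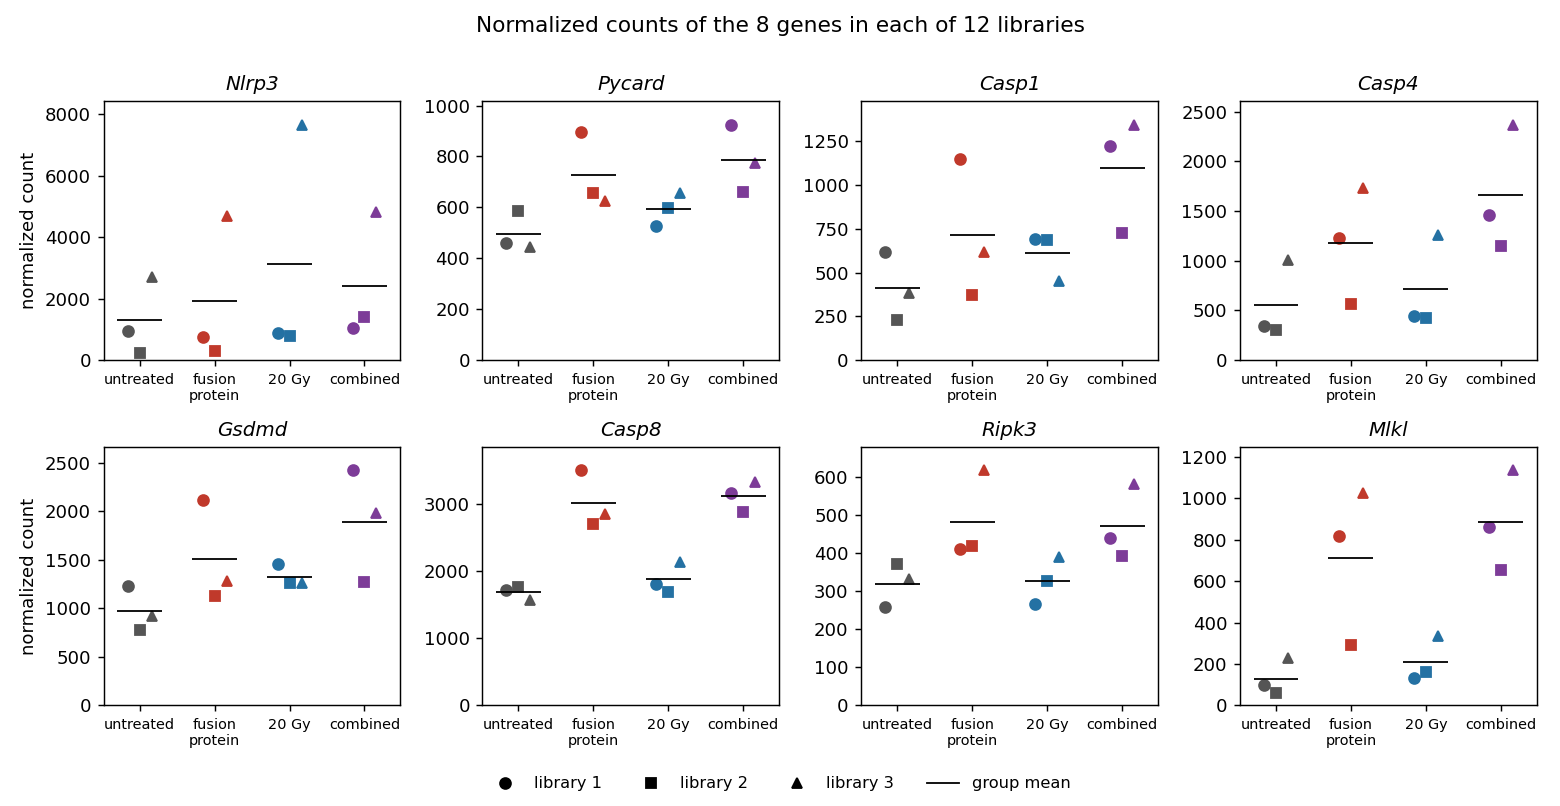
Normalized counts (vertical axes, starting at 0) of the 8 genes in each library, by group; symbols mark the library number and horizontal lines the group means. Casp8 lies between 2706 and 3501 in the 6 libraries with the fusion protein and between 1576 and 2131 in the 6 without, while Nlrp3 is highest in the library numbered 3 of every group.

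Mlkl, the effector that breaks the plasma membrane in necroptosis, changed by the most of the 8 genes. Its normalized counts were 96.6, 59.9 and 231.7 in untreated libraries 1 to 3 and 817.6, 291.7 and 1028 in those with the fusion protein. They were 132, 162.9 and 336.4 after 20 Gy and 860.3, 655.1 and 1137 after the combined treatment. The fusion protein libraries lay above the untreated ones and the combined libraries above the 20 Gy ones, but fusion protein library 2 lay below 20 Gy library 3, so the 6 libraries with and the 6 without the agent overlapped. The group means were 129.4 ± 90.5 (SD, n = 3) untreated, 712.6 ± 379 (SD, n = 3) with the fusion protein, 210.4 ± 110 (SD, n = 3) after 20 Gy and 884.1 ± 242 (SD, n = 3) combined. The fusion protein main effect on the log2 scale was 2.32 ± 0.40 (SE), with an adjusted p of 0.00839 by limma. It was above 0 in 6 of 6 pairs of libraries with the same number, and leaving out each of the 12 libraries in turn kept it between 2.1 and 2.6, with adjusted p-values of 0.00352 to 0.0317.

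Taken alone, fusion protein against untreated gave a log2 fold change of 2.49 ± 0.57 (SE) for Mlkl, which missed the threshold at an adjusted p of 0.0908 by limma. It missed it by edgeR too, at an adjusted p of 0.107, and passed by DESeq2, at one of 0.00183. With the library number of the labels as a block the same difference passed, at an adjusted p of 0.000615 by limma. Combined against 20 Gy, which shares no library with that comparison, gave 2.15 ± 0.57 (SE) at an adjusted p of 0.137 by limma. There edgeR gave an adjusted p of 0.168 and DESeq2 one of 0.0143. Mlkl was 8.46-fold, 4.87-fold and 4.44-fold higher in fusion protein libraries 1, 2 and 3 than in the untreated libraries of the same number. The combined libraries were 6.52-fold, 4.02-fold and 3.38-fold above the 20 Gy libraries of the same number. The gene (ENSMUSG00000012519.14) lies on the minus strand of chromosome 8 at 111311797 to 111338177 in GRCm38 and overlaps the pseudogene Gm45712 on the other strand, which had at most 0.88 normalized counts in any library.

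The promoter window of Mlkl is shown because this gene had the largest change, beside that of Casp8, the other gene that rose. RefSeq (GRCm38.p6) gave a window of 250 bases before to 50 bases after a start site for 7 of the 8 genes, 9 windows in all; Gsdmd was not matched. The 250 bases before the start are printed 5′ to 3′ on the gene's strand, with capitals for any match, on either strand, to a pair of GAAA blocks with 2 bases between them (as in interferon-stimulated response elements), TTCNNNGAA (as in gamma-activated sites), the NF-kB consensus, or the shorter AANNGAAA, which is contained in every match to the first motif and was added after the windows had been seen.
Mlkl (chr8:111338206-111338455, minus strand): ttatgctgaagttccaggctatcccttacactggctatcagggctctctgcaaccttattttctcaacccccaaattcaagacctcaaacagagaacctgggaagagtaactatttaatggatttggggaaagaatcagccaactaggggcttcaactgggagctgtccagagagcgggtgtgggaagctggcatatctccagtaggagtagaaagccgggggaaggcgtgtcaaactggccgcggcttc
Casp8 (chr1:58802252-58802501, plus strand): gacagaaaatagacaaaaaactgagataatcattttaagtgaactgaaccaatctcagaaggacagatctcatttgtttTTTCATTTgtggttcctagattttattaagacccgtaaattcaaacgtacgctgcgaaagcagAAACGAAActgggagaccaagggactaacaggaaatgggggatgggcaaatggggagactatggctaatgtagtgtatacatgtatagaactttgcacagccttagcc
The Mlkl window held none of the 4 motifs. The Casp8 window held AANNGAAA matches that start 171 and 108 bases before the start site, a motif that 23.9% of the 32851 windows in the table held. No window of the 7 genes held the pair of GAAA blocks, found in 3.44% of all windows, or TTCNNNGAA, found in 8.3%. A match is a description of these letters, and its absence says only that they are not in this window. The RefSeq start used for Casp8 lies inside the gene as GENCODE draws it.

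Casp8, the protease that starts apoptosis from death receptors and cuts the kinases of the necroptosis pathway, had the smallest standard error of the 8 genes. Its normalized counts were 1717, 1769 and 1576 in untreated libraries 1 to 3 and 3501, 2706 and 2847 with the fusion protein. They were 1802, 1692 and 2131 after 20 Gy and 3157, 2880 and 3321 after the combined treatment. All 6 libraries with the fusion protein lay above all 6 without it, which held in this direction for 1.86% of genes tested. The fusion protein main effect was 0.78 ± 0.11 (SE) on the log2 scale, with an adjusted p of 0.00232 by limma, and leaving out each of the 12 libraries kept it between 0.73 and 0.83 with adjusted p-values of 0.00191 to 0.0114.

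In fusion protein against untreated, Casp8 was the 1 gene of the 8 that passed, at 0.83 ± 0.16 (SE) and an adjusted p of 0.0378 by limma, where 0.744% of all genes passed in either direction. That call was lost, or kept, by single libraries: it held in 1 of 6 fits that left out a library, the one without fusion protein library 2, and the highest adjusted p by limma, 0.178, came without fusion protein library 1. In combined against 20 Gy, Casp8 gave 0.74 ± 0.16 (SE) and an adjusted p of 0.0537 by limma. None of the 8 genes passed there, where 1.03% of all genes did; 3 of the 8 had an unadjusted p under 0.05, edgeR called 0 and DESeq2 called 2, and without 20 Gy library 3 limma called 1. The gene (ENSMUSG00000026029.14, chromosome 1 at 58795374 to 58847503, plus strand) shares its strand and part of its span with the provisional annotation Gm37760, at 64.1 to 441 normalized counts, so reads could be split between them.

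Ripk3, the kinase that activates MLKL, had normalized counts of 258.4, 370.7 and 331 in untreated libraries 1 to 3 and 409.3, 418.4 and 617.5 with the fusion protein. After 20 Gy they were 267.5, 325.7 and 388.7, and after the combined treatment 440.5, 393.2 and 580. As for Casp8, all 6 libraries with the agent lay above all 6 without it; the closest values were 393.2 in combined library 2 and 388.7 in 20 Gy library 3. The main effect of 0.55 ± 0.17 (SE) on the log2 scale had an adjusted p of 0.136 by limma and did not pass; DESeq2 gave an adjusted p of 0.0469 and edgeR one of 0.126. The gene (ENSMUSG00000022221.14) lies on the minus strand of chromosome 14 at 55784995 to 55788865.

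Levels of different genes were compared per kilobase of merged exon, a scale that depends on the gene model. On it Mlkl lay below Ripk3 in 3 of 3 untreated and 3 of 3 20 Gy libraries. It lay above Ripk3 in 2 of 3 fusion protein libraries, the exception being library 2, and in 3 of 3 combined libraries. Across the 12 libraries Mlkl spanned a 19-fold range and Ripk3 a 2.39-fold range.

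Among the caspases of pyroptosis, Casp4 encodes caspase-11, the cytosolic lipopolysaccharide receptor. Its normalized counts were 343.7, 299.5 and 1003 in untreated libraries 1 to 3 and 1233, 565.3 and 1735 with the fusion protein. They were 443.5, 427.5 and 1260 after 20 Gy and 1464, 1150 and 2371 after the combined treatment. The library numbered 3 was the highest of its group in all 4 groups, and the groups overlapped both between fusion protein and untreated and between combined and 20 Gy. The log2 fold changes were 1.18 ± 0.57 (SE) for fusion protein against untreated, with an adjusted p of 0.637 by limma, and 1.35 ± 0.57 (SE) for combined against 20 Gy, with one of 0.503. With the library number as a block, the fusion protein comparison passed at an adjusted p of 0.0129 by limma, and the called genes were then 3 of the 8 (Casp4, Casp8 and Mlkl) where 3.29% of all genes passed. Casp4 (ENSMUSG00000033538.13) lies at 5308828 to 5336783 on chromosome 9, next to Casp1.

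The window before Casp4 and the one before Nlrp3 are shown because they were the only ones of the 7 matched genes with a match to the NF-kB consensus, which 8.46% of all windows held.
Casp4 (chr9:5308599-5308848, plus strand): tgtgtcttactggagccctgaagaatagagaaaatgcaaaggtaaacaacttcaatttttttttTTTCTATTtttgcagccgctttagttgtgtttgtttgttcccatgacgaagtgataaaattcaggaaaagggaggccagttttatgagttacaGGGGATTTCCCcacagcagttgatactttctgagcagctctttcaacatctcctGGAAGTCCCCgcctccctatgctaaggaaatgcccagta
Nlrp3 (chr11:59541319-59541568, plus strand): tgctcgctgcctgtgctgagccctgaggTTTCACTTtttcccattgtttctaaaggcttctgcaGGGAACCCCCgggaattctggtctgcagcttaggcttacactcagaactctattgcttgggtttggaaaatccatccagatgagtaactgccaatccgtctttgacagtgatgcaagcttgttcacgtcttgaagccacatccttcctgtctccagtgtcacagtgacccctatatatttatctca
In Casp4 the NF-kB matches start 93, 92 and 39 bases before the start site, the first 2 overlapping each other, and in Nlrp3 the match starts 186 bases before it. Both windows also hold an AANNGAAA match in capitals, at 186 bases in Casp4 and 222 bases in Nlrp3. Each of these genes has a second RefSeq start: the second window of Casp4 overlaps the first and holds the same NF-kB matches, and that of Nlrp3 holds AANNGAAA matches alone.

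Casp1, the protease at the core of the inflammasome, had normalized counts of 614.8, 230.9 and 381.7 in untreated libraries 1 to 3 and 1148, 371.8 and 616.4 with the fusion protein. They were 694.3, 685.8 and 448.9 after 20 Gy and 1223, 725.1 and 1346 after the combined treatment. Every combined library lay above every 20 Gy library, with combined library 2 the closest, while the fusion protein and untreated libraries overlapped. The log2 fold changes of 0.76 ± 0.44 (SE) for fusion protein against untreated and 0.83 ± 0.44 (SE) for combined against 20 Gy did not pass, with adjusted p-values of 0.762 and 0.676 by limma. Casp1 (ENSMUSG00000025888.6) lies at 5298517 to 5307265 on chromosome 9, plus strand.

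Gsdmd encodes the pore-forming substrate of both caspases. Counts were 1228, 776.3 and 920.7 in untreated libraries 1 to 3 and 2114, 1123 and 1284 with the fusion protein. They were 1461, 1260 and 1259 after 20 Gy and 2424, 1267 and 1985 after the combined treatment. Library 1 was the highest of its group in all 4 groups. Fusion protein against untreated gave 0.6 ± 0.29 (SE) and combined against 20 Gy 0.46 ± 0.29 (SE) on the log2 scale, with adjusted p-values of 0.637 and 0.757 by limma. Gsdmd (ENSMUSG00000022575.5) lies at 75862327 to 75867408 on chromosome 15, plus strand.

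Pycard, the ASC adaptor that links sensor to caspase-1, had normalized counts of 460.5, 585.4 and 444.8 in untreated libraries 1 to 3 and 896.9, 657.4 and 623 with the fusion protein. After 20 Gy they were 525.3, 595.7 and 657, and after the combined treatment 925, 659.1 and 772.5. The fusion protein libraries lay above the untreated ones and the combined libraries above the 20 Gy ones, with 659.1 in combined library 2 just above 657 in 20 Gy library 3. The main effect of 0.47 ± 0.15 (SE) on the log2 scale had an adjusted p of 0.13 by limma and did not pass; DESeq2 gave 0.0409 and edgeR 0.137. Pycard (ENSMUSG00000030793.4, chromosome 7 at 127989708 to 127993867, minus strand) overlaps the provisional annotation Gm45205 on the other strand, at 41.2 to 232 normalized counts, so reads could be shared unless strand was used in counting, which the sources used here do not state.

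Nlrp3, the sensor, was the member with the widest spread, 32-fold between the lowest and the highest of the 12 libraries. Its normalized counts were 939.8, 239.6 and 2695 in untreated libraries 1 to 3 and 754.1, 298.8 and 4679 with the fusion protein. They were 874.7, 787.5 and 7665 after 20 Gy and 1036, 1387 and 4833 after the combined treatment. The library numbered 3 was highest in all 4 groups, and all 4 groups overlapped. Fusion protein against untreated gave 0.27 ± 1.19 (SE) and combined against 20 Gy 0.13 ± 1.19 (SE) on the log2 scale, with adjusted p-values of 0.999 and 0.995 by limma, and the latter turned to -0.36 by edgeR and DESeq2. It was the 1 gene of the 8 not higher in every pair of the same number, being higher in 4 of 6. Nlrp3 (ENSMUSG00000032691.14) lies at 59541568 to 59566956 on chromosome 11, plus strand.

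**Figure D2:**
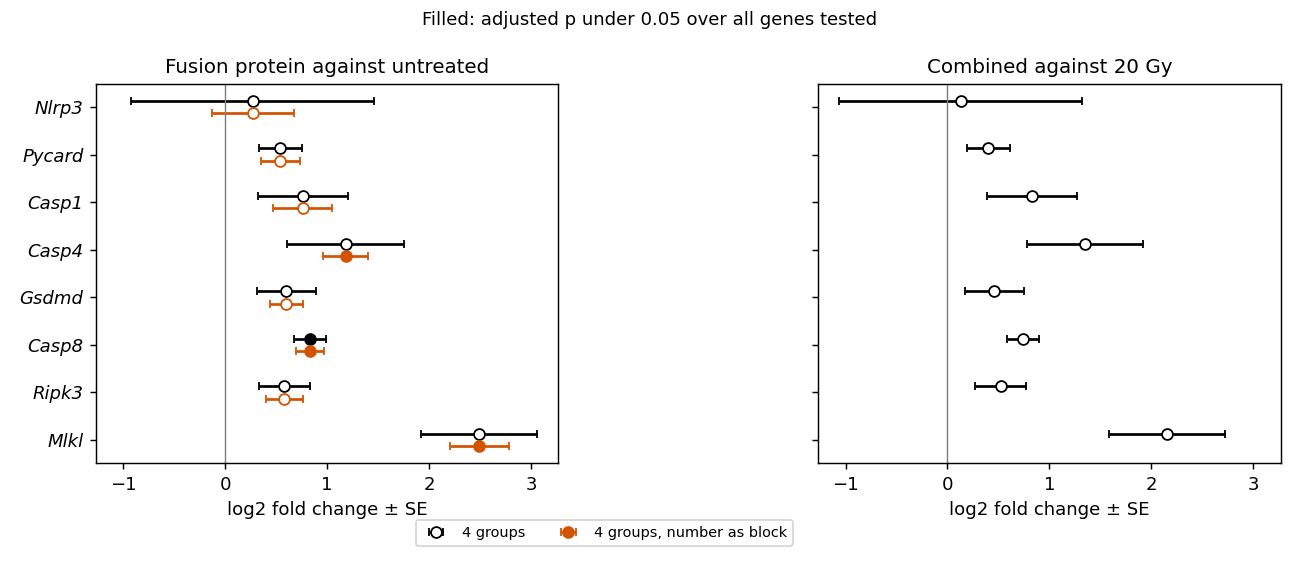
Log2 fold change ± SE (horizontal axis) of each gene for fusion protein against untreated (left) and combined against 20 Gy (right). Filled points have an adjusted p under 0.05 over all genes tested. Orange points use the library number as a block and are drawn in the left panel only. Mlkl has the largest fitted change in both panels, 2.49 and 2.15, and Nlrp3 has the widest error, 1.19 in both.

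Side by side, the comparison without radiation and the comparison after it gave fitted differences above 0 for all 8 genes, with medians of 0.68 and 0.63 against -0.01 and -0.02 over all genes tested. These comparisons share no library. Casp8, Pycard, Mlkl and Ripk3 did not overlap between fusion protein and untreated, where 5.94% of all genes did so in this direction. Casp1, Casp8, Pycard, Mlkl and Ripk3 did not overlap between combined and 20 Gy, where 8.36% of all genes did so. By library number, 7 of the 8 genes were higher with the agent in 6 of 6 pairs, against 8.93% of all genes tested. The smallest such ratios were 1.01 for Gsdmd and 1.06 for Casp1, both in combined library 2 over 20 Gy library 2, so part of this count rests on differences of a few percent. Over all genes tested, deviations of these number 2 libraries from their group means correlated at only 0.00951, so they are matched by label alone.

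Radiation alone gave no call among the 8 genes. Against untreated, log2 fold changes after 20 Gy ran from 0.03 for Ripk3 to 1.04 for Nlrp3, with adjusted p-values of 0.753 to 0.989 by limma; 0 of the 8 genes had an unadjusted p under 0.05, and edgeR and DESeq2 called 0 of them too. Over all genes, limma called 0 (0% of genes tested) and edgeR 0, with 1231 at an unadjusted p under 0.05 by limma, while DESeq2 called 45. Gsdmd was the 1 gene of the 8 whose 20 Gy libraries all lay above the untreated ones, as 6.73% of all genes did. The largest value of Nlrp3 in any library, 7665, was in 20 Gy library 3.

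Adding 20 Gy to the fusion protein likewise gave no call among the 8 genes. The fitted log2 fold changes were 0.9 for Nlrp3, 0.73 for Casp1, 0.57 for Casp4, 0.46 for Mlkl, 0.33 for Gsdmd, 0.12 for Pycard, 0.05 for Casp8 and -0.02 for Ripk3. The Nlrp3 value rested on single libraries, at 0.02 without fusion protein library 2, 0.23 without combined library 3 and 2 without fusion protein library 3, and was 0.34 by edgeR and DESeq2. Limma, edgeR and DESeq2 each called 0 genes (0%) over the whole table here, and limma gave 534 at an unadjusted p under 0.05, none of them among the 8. The difference between the agent's effect after radiation and without it, the interaction, ran from -0.34 for Mlkl to 0.17 for Casp4 on the log2 scale, and 0 of the 8 genes passed by limma, edgeR or DESeq2, with 0 at an unadjusted p under 0.05 by limma. Over all genes limma called 0 (0%), with 188 at an unadjusted p under 0.05, edgeR 0 and DESeq2 1.

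The combined treatment against no treatment raised Casp8, by 0.89 ± 0.16 (SE) on the log2 scale with an adjusted p of 0.0177 by limma, and Mlkl, by 2.95 ± 0.57 (SE) with one of 0.0271, 2 of the 8 genes where 1.4% of all genes passed. Casp4 gave 1.75 ± 0.57 (SE), Casp1 1.48 ± 0.44 (SE) and Gsdmd 0.93 ± 0.29 (SE), with adjusted p-values of 0.218, 0.164 and 0.185 by limma. With the library number as a block these 3 passed as well, at adjusted p-values of 0.000615, 0.0103 and 0.00487 by limma, which made 5 of the 8 genes where 7.73% of all genes passed. Without the block, each fit that left out 1 of the 6 untreated and combined libraries called 0 or 1 of the 8; the count was 0 without untreated library 2, combined library 1 or combined library 3. This comparison shares its untreated libraries with fusion protein against untreated, so the shared calls are not separate evidence.

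In untreated cells the mean level per kilobase of merged exon was 583 ± 34.6 (SD, n = 3) for Casp8 and 410 ± 97.1 (SD, n = 3) for Gsdmd. Nlrp3 followed at 318 ± 312 (SD, n = 3), Casp1 at 273 ± 129 (SD, n = 3) and Casp4 at 148 ± 106 (SD, n = 3). Ripk3 at 140 ± 24.9 (SD, n = 3), Pycard at 131 ± 20.3 (SD, n = 3) and Mlkl at 56.2 ± 39.3 (SD, n = 3) were the lowest. Neighbours in this order differed by less than the larger of their SDs, except Casp8 and Gsdmd, and Pycard and Mlkl. With the fusion protein the order of means was Casp8 (1040 ± 147), Gsdmd (634 ± 224), Casp1 (476 ± 265), Nlrp3 (471 ± 594), Casp4 (317 ± 158), Mlkl (309 ± 165), Ripk3 (210 ± 51.3) and Pycard (191 ± 39.3; SD, n = 3 for each). Mlkl thus stood above Ripk3 and Pycard there by less than its SD, and after the combined treatment, at 384 ± 105 against 207 ± 35.1 for Pycard and 206 ± 42.4 for Ripk3 (SD, n = 3 for each), by more. After 20 Gy the order of the first 2 changed, with Nlrp3 at 766 ± 973 and Casp8 at 648 ± 78.9 (SD, n = 3 for each), a difference within the spread of Nlrp3, and Mlkl was again the lowest at 91.4 ± 47.8 (SD, n = 3). Over all 12 libraries the medians per kilobase ran from 836 for Casp8 to 136 for Mlkl. The Pycard length is that of a merged gene model, whose 3800 exon bases take up most of a gene at 127989708 to 127993867. Its main transcript may be shorter. The level of Pycard per kilobase may therefore be understated, and its place in these orders is uncertain.

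The 8 genes did not vary alike between the libraries of a group. Nlrp3, Casp4 and Mlkl were highest in the library numbered 3 of all 4 groups, and Gsdmd in the library numbered 1. For Casp1 the highest library of a group was number 1, except in the combined group, where it was number 3. The melanoma markers were also highest in the libraries numbered 3, and so was Tnf, the cytokine that can start necroptosis, at 2001, 4357, 5618 and 3804 normalized counts in the untreated, fusion protein, 20 Gy and combined groups. Their part in these values was not tested. Leaving out the 4 libraries numbered 3 gave 3 of the 8 genes called for the fusion protein main effect. They were Casp8 at 0.8, Mlkl at 2.51 and Casp4 at 1.47 on the log2 scale, with adjusted p-values of 0.0176, 0.00985 and 0.0234 by limma. The share of all genes called in that fit is not given here, so this count cannot be set against it.

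**Figure D3:**
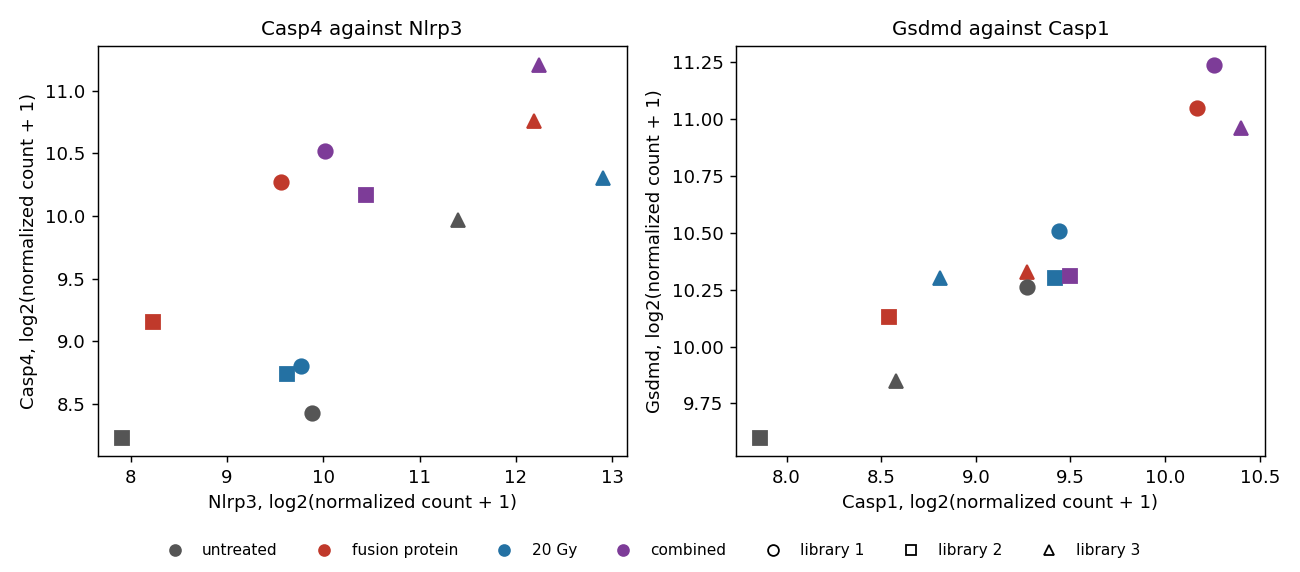
Log2(normalized count + 1) of Casp4 against Nlrp3 (left) and of Gsdmd against Casp1 (right), one point per library, with colour for the group and shape for the library number. The libraries numbered 3 (triangles) have the 4 highest values of Nlrp3, and on the right the highest Gsdmd value, 2424 normalized counts, is in combined library 1.

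The genes whose levels followed each member most closely over the 12 libraries were found by Pearson r of log2 values among 14188 named genes. This describes likeness in libraries that share their groups and numbers. For Mlkl they were Ifi211 (0.985) and Ifi204 (0.984), members of the interferon-inducible p200 family, and for Casp8 Rtp4 (0.987) and Ifi35 (0.985), both known as interferon-induced genes. For Casp4 they were Ccl2 (0.983), a monocyte-attracting chemokine, and Fgl2 (0.98). For Nlrp3 they were Ripk2 (0.981), the kinase of the NOD receptors, and Cd14 (0.981), the lipopolysaccharide co-receptor. For Casp1 they were Ms4a6c (0.973) and Cd300lf (0.968), for Gsdmd Kat2b (0.968) and Stard3 (0.966), for Ripk3 Hist1h2bj (0.952) and Pfdn6 (0.948), and for Pycard Snrnp27 (0.925) and Zfas1 (0.909), so Pycard had the least close neighbours.

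Sets of other markers moved with the fusion protein. The summed normalized counts of 10 genes of the type I interferon response were 4255 to 4890 in untreated, 31600 to 65000 in fusion protein, 4806 to 12760 in 20 Gy and 54240 to 97520 in combined libraries. Those of the 6 monocyte markers were 4037 to 8027, 9373 to 21650, 6454 to 11810 and 16740 to 28630 in the same order. Those of the 5 NK cell markers were 13990 to 15420, 25880 to 53520, 8758 to 12390 and 28630 to 33070. Those of the 7 dendritic cell markers were lower, at 6741 to 11570, 1427 to 3407, 10020 to 11970 and 3057 to 5449. Neutrophil markers ran from 37.4 to 1810 in untreated, 120.5 to 3938 in fusion protein, 2404 to 4740 in 20 Gy and 1312 to 5075 in combined libraries. The 5 red cell markers summed to between 91.2 and 396.4 in combined and between 2011 and 2897 in 20 Gy libraries. The 8 macrophage markers summed to between 3909 and 6460 in combined and between 9223 and 13820 in 20 Gy libraries. Both of these sums overlapped between fusion protein and untreated libraries. None of the markers on these lists was at 0 across a group. The interferon, monocyte, NK cell and dendritic cell sums did not overlap between libraries with and without the agent at the same radiation dose. This was also so for Mlkl, Casp8, Pycard and Ripk3. Gene by gene, a lack of overlap held at both doses for 10 of 10 interferon genes, for 2 of 6 monocyte markers (Ly6c2 and Fcgr1), for 2 of 5 NK cell markers (the effector genes Gzma and Prf1) and, as lower, for 4 of 7 dendritic cell markers (Flt3, Xcr1, Cd209a and Kit). In the higher direction it held for 5.94% of all genes without radiation and for 8.36% after 20 Gy. The shares at both doses together and in the lower direction were not worked out. Chil3, another monocyte marker, had a mean of 581.8 after 20 Gy and 399.3 combined, and the NK cell receptor gene Klrd1 means of 1452 and 1555. The part of these markers in the changes of the 8 genes was not tested.

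Around the 8 genes, a list of 61 further genes of these pathways was examined, of which 56 passed the filter; Nlrp6, Gsdma, Gsdma2, Gsdma3 and Gsdmc did not. For the fusion protein main effect 5 of the 56 rose and 1 fell by limma, where 2.07% of all genes were called higher and 3.29% in either direction. The median log2 fold change of the 56 was 0.24. Without the libraries numbered 3, 9 of the 56 passed, and the share of all genes called in that fit is not given here. Without the 3 libraries rich in receptor gene reads the 20 Gy group held library 3 alone, so calls of that fit are not compared. Zbp1, the sensor of Z-form nucleic acids that can engage RIPK3, rose by 2.59 ± 0.28 (SE) on the log2 scale, with an adjusted p of 0.00038 by limma. Its normalized counts were 925.6, 1023 and 1892 in untreated libraries and 8102, 5584 and 8794 with the fusion protein. They were 1017, 1050 and 2835 after 20 Gy and 9554, 6753 and 10270 after the combined treatment, so all 6 libraries with the agent lay above all 6 without it.

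The other 4 that rose belong to the cytosolic lipopolysaccharide group, whose guanylate-binding proteins and immunity-related GTPases are known to act on bacteria and vacuoles ahead of caspase-11. In that group 4 of 6 genes rose: Gm12250 (also known as Irgb10) by 2.2, Irgm1 by 1.84, Gbp7 by 1.72 and Gbp5 by 1.45 on the log2 scale, with adjusted p-values of 0.000378, 0.0135, 0.00535 and 0.0446 by limma. Over all genes 2.07% were called higher. The edgeR test called 3 of the 6, and 3.22% of all genes in either direction. Gbp3 at 1.37 and Gbp2 at 1.39 did not pass, with adjusted p-values of 0.0865 and 0.349 by limma. Genes of guanylate-binding proteins resemble each other in sequence, so reads may be split among them. Gm12250 rose in each comparison of the agent, by 2.02 against untreated and 2.37 against 20 Gy, with adjusted p-values of 0.0197 and 0.00537 by limma. Zbp1 did so as well, by 2.6 and 2.59, with 0.0131 and 0.00929, and Gbp7 rose against 20 Gy alone, by 2.0 with 0.0361, and gave 1.45 with 0.178 against untreated. Single libraries decided several of these calls. Zbp1 missed the threshold without untreated library 2 or fusion protein library 1 or 3 (adjusted p at most 0.0704 by limma), and in combined against 20 Gy without 20 Gy library 1 or 2 or combined library 1 or 3 (at most 0.0623). Gm12250 missed it against untreated without untreated library 1 or 2 or fusion protein library 1 or 3 (at most 0.107 by limma), and Gbp7 missed it against 20 Gy when any library of the 2 groups but 20 Gy library 3 was left out (at most 0.185). The interaction for Gbp7 was 0.55 ± 0.55 (SE) on the log2 scale and did not pass, with an adjusted p of 1 by limma.

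Casp6, a caspase known to take part in apoptosis, was the 1 gene of the list that fell, by 0.68 on the log2 scale (SE 0.14) with an adjusted p of 0.02 by limma. Casp6 had normalized counts of 295.8, 280.8 and 271 in untreated and 161.8, 195.5 and 190.1 in fusion protein libraries, and 344.1, 310.7 and 375.6 after 20 Gy and 246.3, 200.6 and 181.3 after the combined treatment. All 6 libraries with the agent lay below all 6 without it, and the share of all genes that did so in this direction was not worked out.

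None of the 18 tested sensors and adaptors passed for the fusion protein main effect by limma, with 2 at an unadjusted p under 0.05. For the same group edgeR called 0 and DESeq2 1. Over all genes limma called 3.29%, edgeR 3.22% and DESeq2 7.33% for this effect. By limma, 2653 of the 18274 genes tested had an unadjusted p under 0.05. Aim2, the sensor of cytosolic DNA, gave log2 fold changes of 0.21 against untreated and 0.23 against 20 Gy, and Nlrc4, the partner of the NAIP receptors, 0.09 and 0.14. Of the 5 cytokines and inhibitors 0 passed by limma, with 2 at an unadjusted p under 0.05, and edgeR and DESeq2 called 1 each. Il1b, the cytokine that caspase-1 matures, gave -0.97 and -1.31, and Il18, the other, 1.9 and 0.93. Il18 passed against untreated with the library number as a block, at an adjusted p of 0.0181 by limma, against 0.294 without it. Without untreated library 1 it passed too, at 2.62 and an adjusted p of 0.0485 by limma, and leaving out each other library gave 1.43 to 2.27. Il1b reached 26120 normalized counts in 20 Gy library 3, the library with the highest Nlrp3.

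In the necroptosis group, Mlkl and Zbp1 were the 2 of 18 tested genes that rose for the fusion protein main effect, and none fell. Over all genes 2.07% were called higher by limma. Ripk1, the kinase upstream of RIPK3, gave 0.03 against untreated and 0.26 against 20 Gy, and Fadd, the adaptor that recruits caspase-8, 0.36 and 0.35. Ninj1, which ruptures the plasma membrane late in lytic death, gave 0.11 and 0.31, and Gsdme, another pore-forming gasdermin, -1.58 and -1.83 at normalized counts of at most 107.4; none of these passed. Leaving out single libraries moved Gsdme to between -2.1 and -0.94 against untreated and to between -2.52 and -0.48 against 20 Gy, nearest to 0 without fusion protein library 2 and without combined library 2. With the library number as a block, 8 of the 56 genes rose against untreated, where 2 did without it, while the share of all genes called went from 0.744% to 3.29%. The combined treatment against no treatment raised 16 with the block and 2 without it, while the share of all genes went from 1.4% to 7.73%. Across the 56 genes, radiation against no treatment and the combined treatment against fusion protein gave 0 calls by limma with or without the block; with it, 0.383% of all genes passed for radiation and 0% for the latter.

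**Figure D4:**
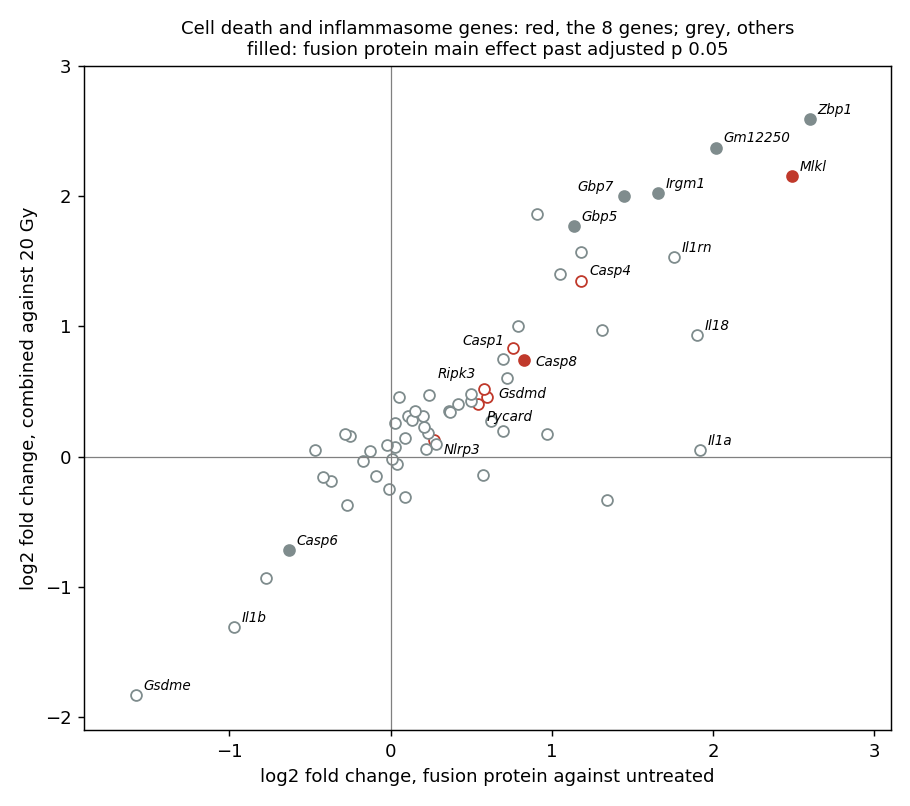
Log2 fold change of the 64 tested genes of the pathway list for fusion protein against untreated (horizontal) and combined against 20 Gy (vertical); red marks the 8 genes, grey the others, and filled points passed for the fusion protein main effect. Zbp1, at 2.6 and 2.59, and Mlkl, at 2.49 and 2.15, lie farthest to the upper right, and Casp6 is the 1 filled point below 0.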

How the data were processed

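RNA of CD45+ CD11c+ cells from 12 tumour samples was sequenced. The kit was Takara's SMARTer Pico Input version for stranded total RNA, per the labels' protocols. Per the submitters' processing notes, the authors used FastQC, Trimmomatic, STAR on build mm10, featureCounts and DESeq2; their versions and settings were not given in the sources used here. The deposited signal values are read counts that the authors divided by a DESeq2 size factor per library; whole reads recovered from them were whole within 0.001 in 100% of values, and served the count tests. Of 55401 identifiers, 55141 matched GENCODE vM21, which also gave exon lengths and positions.

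Genes with at least 10 normalized counts in at least 3 libraries (18274) were tested with limma 3.58.1 (R 4.3.3; trend, two-sided) on log2(normalized count + 1) over 4 groups. Fold changes on that scale understate the change of low genes. Alternatives were a pseudocount of 5, no filter, TMM scaling, edgeR 4.0.16, DESeq2 1.42.0, fewer groups or libraries, and the replicate number as a block. Scripts were tested on simulated data with known changes. Of 67 genes changed by 1 on the log2 scale, 3 were recovered in fusion protein against untreated and 24 for the main effect. A gene that did not pass may therefore still have changed by that much. The labels do not say what the numbers stand for. Deviations of same-numbered libraries correlated above 0.1 for all 3 numbers in 4 of the 5 comparisons (0.156 to 0.621). In 20 Gy against untreated, however, number 2 gave 0.156, below its highest correlation with a library of another number, 0.351. In combined against 20 Gy number 2 gave 0.00951, against 0.354, so the block is used beside results only in the other 4. The blocked fit took in all 12 libraries. Blocked results of every comparison therefore rest partly on libraries whose pairing is not established. Replicate libraries of a group differed by more than sampling noise.

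The 8 genes, the pathway list, the marker lists and the naming rule were chosen with earlier results of these data known. All 8 genes are named; of the pathway list, those called in either comparison of the agent plus 11 set genes, of which 2 are not reported here; and for each of the 8, the 2 most alike genes. Those called for the main effect alone, with Gbp2, Gbp3 and Tnf, were named after their values were seen.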

Additional observations from a re-analysis of the deposited data

How the results depend on the processing

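The direction of Casp8 and Mlkl with the fusion protein held under each alternative run. For fusion protein against untreated, the 1 called gene of the 8 became 3 with the replicate block, 2 by DESeq2, and 0 with no filter, with only the compared groups, without the libraries numbered 3, and without the 3 libraries rich in receptor genes; leaving out single libraries gave 0 to 2. For combined against 20 Gy, 0 became 3 with the replicate block (Casp4, Casp8 and Mlkl, where 4.56% of all genes passed), 1 with a pseudocount of 5 and 2 by DESeq2, and leaving out single libraries gave 0 to 1. For combined against untreated, 2 became 5 with the replicate block, 1 with no filter, by edgeR, with only the compared groups and without the libraries numbered 3, and 0 without the receptor-rich libraries; leaving out single libraries gave 0 to 1. For the main effect, 2 became 7 with the replicate block (all but Nlrp3, at adjusted p 0.727 by limma, where 10.9% of all genes passed), 4 by DESeq2, 3 without the libraries numbered 3 and 0 without the receptor-rich libraries. That last setting leaves the 20 Gy group with library 3 alone, whose spread is taken from the other groups. The cause of these moves was not tested. For the main effect without the libraries numbered 3, the share of all genes called is not given here. The replicate block changed no other call among the 8. Over all genes, calls moved for the main effect from 602 to 1989 with the block and 1339 by DESeq2, for fusion protein against untreated from 136 to 602 and 464, for combined against 20 Gy from 188 to 834 and 550, for combined against untreated from 256 to 1413 and 755, and for 20 Gy against untreated from 0 to 70 and 45. Without the receptor-rich libraries the first 4 of these counts were 87, 50, 0 and 80; with only the compared groups, fusion protein against untreated gave 18 and combined against untreated 149, and without the libraries numbered 3 the latter gave 168.

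Reversals were among genes not called. By edgeR and DESeq2, Ripk1 gave -0.01 and -0.01 and Nlrc4 -0.17 and -0.14 against untreated, and Nlrp3 -0.36 and -0.36 and Ninj1 -0.12 and -0.13 in combined against 20 Gy. Without the libraries numbered 3, Nlrc4 gave -0.12 against untreated; Aim2 -0.13 and Nlrc4 -0.36 in combined against 20 Gy; Ripk3 -0.07 for 20 Gy against untreated; Casp8 -0.03 and Ripk3 0.01 for combined against fusion protein; and Casp1 -0.34, Nlrp3 0.53 and Ripk3 0.08 for the interaction. Without the receptor-rich libraries, which sets 2 combined libraries against 20 Gy library 3 alone, Nlrp3 gave -1.57, Ripk1 -0.12 and Ninj1 -1.23 in combined against 20 Gy; Pycard -0.01 and Ripk3 0.01 for combined against fusion protein; Nlrp3 -0.65 for the main effect; and Casp4 -0.79 for the interaction.

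Leaving out single libraries also reversed values, which ran as follows. Against untreated with the fusion protein, Aim2 ran from -0.25 to 0.67, Fadd from -0.02 to 0.71, Il1b from -2.23 to 0.15, Ninj1 from -0.27 to 0.55, Nlrc4 from -0.35 to 0.74, Nlrp3 from -0.83 to 1.15 and Ripk1 from -0.23 to 0.36. In combined against 20 Gy, Aim2 ran from -0.05 to 0.52, Il1b from -2.06 to 0.02, Ninj1 from -0.18 to 1.16, Nlrc4 from -0.29 to 0.43 and Nlrp3 from -0.54 to 1.2. For 20 Gy against untreated, Casp4 ran from -0.11 to 0.95, Nlrp3 from -0.03 to 1.87 and Ripk3 from -0.11 to 0.17. For combined against fusion protein, Casp8 ran from -0.02 to 0.17, Mlkl from -0.09 to 0.82, Pycard from -0.01 to 0.28 and Ripk3 from -0.18 to 0.17. For the main effect Nlrp3 ran from -0.35 to 0.73. For the interaction, Casp1 ran from -0.32 to 0.49, Casp4 from -0.38 to 0.68, Casp8 from -0.17 to 0.02, Gsdmd from -0.34 to 0.14, Mlkl from -0.89 to 0.09, Nlrp3 from -1.02 to 0.97, Pycard from -0.26 to 0.02 and Ripk3 from -0.22 to 0.14.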
